A study of Homo sapiens with 12 samples.

Results

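The genes described here are 5 signal transducers and activators of transcription (STAT2, STAT3, STAT5A, STAT5B and STAT6), the kinase JAK1 and the suppressors of cytokine signalling SOCS1, SOCS2 and SOCS3, 9 genes in all. Members were taken by gene symbol: every transcript cluster to which the array's platform table gives one of these names as its single symbol was used, and for STAT3 also the cluster that the supplementary material of the study names STAT3. This gave 9 clusters of 8 genes, out of 67528 clusters, of which 23781 carry a single symbol. STAT2 is not listed in the platform table and was not analysed here. A transcript cluster is a set of probes that reads 1 locus, and each of the 8 genes had 1 cluster by symbol.

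In this pathway, a cytokine binds its receptor at the cell surface, the receptor-bound Janus kinases (JAK1, JAK2, JAK3 and TYK2) phosphorylate each other and the receptor tail, and STAT proteins dock there, are phosphorylated, pair up and enter the nucleus as transcription factors. SOCS proteins are switched on by STATs and bind back to receptors or kinases, which closes a negative feedback loop. In colon epithelium the axis from interleukin 6 and its co-receptor gp130 to STAT3 is known for its part in regeneration and in tumour growth, and interferons also signal through JAK1. STAT activity is set by phosphorylation, which an RNA array does not read.

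Messenger RNA was measured in HT-29 and SW480, established cell lines of human colorectal adenocarcinoma, kept for 72 h in medium with 10000 or 0 ng/mL folic acid (FA), a supraphysiological supply and an FA-free one. The groups, with 3 arrays each and 12 in all, were HT-29 at 10000 ng/mL, HT-29 at 0 ng/mL, SW480 at 10000 ng/mL and SW480 at 0 ng/mL. The labels call the arrays of a group biological replicates, and the study seeded its cells in triplicate, without saying which wells or experiments the arrays came from, so p-values measure only the spread between these arrays, which may be technical. FA was dissolved in NaOH, and since the arrays are labelled only as untreated or FA-treated, FA and its solvent cannot be told apart. Each line stands for 1 tumour, without its stroma and immune cells, and the lines differ in many genes at once. Values are log2 signals as the authors deposited them. A level of one cluster cannot be set against that of another, because each has its own probes, so differences between groups were taken within a cluster. Where a level is set against a common limit or against the median over all clusters, this is a rough description only.

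The array of HT-29 at 0 ng/mL, replicate 3, stood apart from the rest. Over all clusters it correlated with the rest of the line at 0.944 to 0.954, while the others correlated with each other at 0.988 to 0.995, and its median was 4.75, against 4.3 to 4.58 on the other 11 arrays. For all 9 member clusters it lay outside the range of the other 5 HT-29 arrays, below it for JAK1, both STAT3 clusters, STAT5B and STAT6 and above it for STAT5A and the 3 SOCS genes. How often this was so over all clusters was not counted. Results are therefore given with and without this array. SW480 at 0 ng/mL, replicate 2, also lay below the other SW480 arrays for JAK1, both STAT3 clusters, STAT5B and SOCS3. It lay above them for SOCS1 and SOCS2. Over all clusters the SW480 arrays correlated with each other at 0.986 to 0.995. Of the 10 colon epithelium markers, KRT8 and EPCAM were at 12.54 or above on every array, while KRT20 was at 12.79 to 13.75 in HT-29 and 3.65 to 3.81 in SW480, and CDX1, CDX2 and CDH17 were below 6 on all 12 arrays. Of 11 markers of immune, endothelial, stromal, blood and liver cells, 10 were below 6 on all arrays, the exception being CD68, a lysosomal protein of macrophages, at up to 8.27. In such bulk samples fewer cells of a type and less RNA per cell cannot be told apart.

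**Figure D1:**
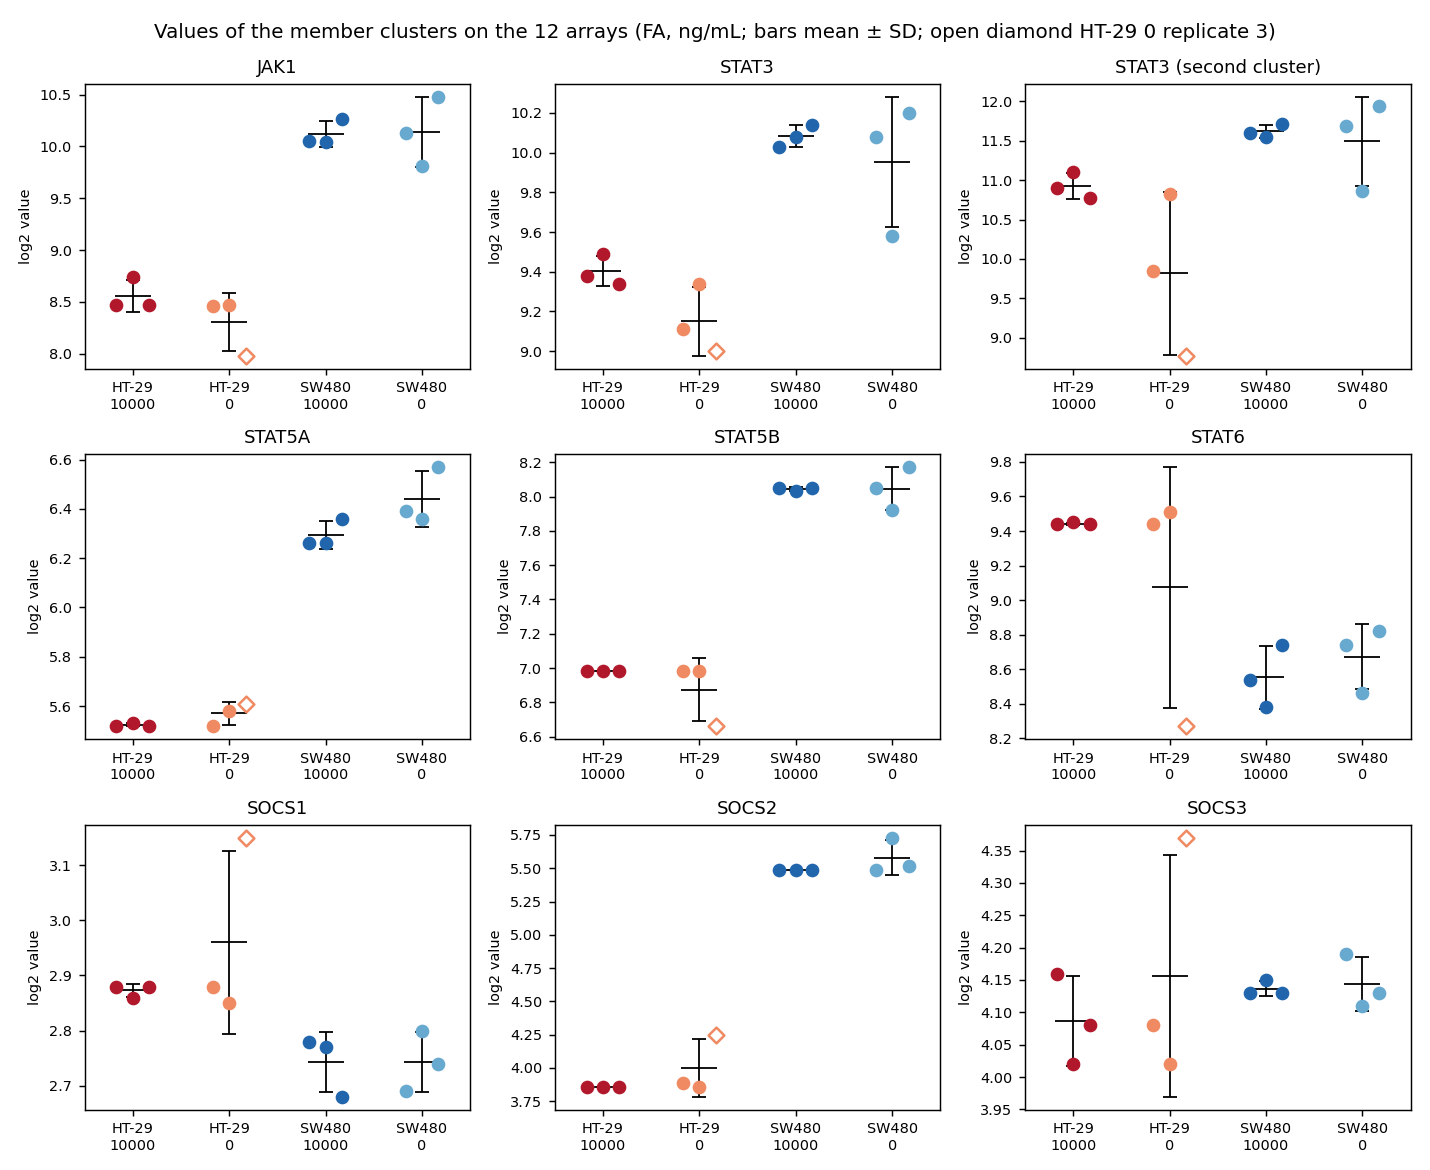
Log2 values of the 9 member clusters on the 12 arrays; each panel is 1 cluster with its own vertical axis, dots are arrays grouped by cell line and FA supply (ng/mL), horizontal bars with whiskers are means ± SD (n = 3), and the open diamond is HT-29 at 0 ng/mL, replicate 3. JAK1, STAT3, STAT5A, STAT5B and SOCS2 are lower on all 6 HT-29 arrays than on any SW480 array, while FA-treated and untreated arrays of a line overlap in every panel.

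The first question is whether the members differ between the lines, and most of them did. In HT-29 relative to SW480, JAK1, STAT3, STAT5A, STAT5B and SOCS2 were lower at both FA supplies, by 1.60-fold to 3.57-fold. STAT6 was higher in HT-29 at 10000 ng/mL. SOCS1 and SOCS3 did not pass the test at either supply. With limma over the 4 groups and Benjamini-Hochberg adjustment over all clusters (called at an adjusted p under 0.05), 6 of the 8 clusters chosen by symbol were called at 10000 ng/mL, 1 higher and 5 lower in HT-29, and 5 at 0 ng/mL, all lower. Scaling moved this split: 1 higher and 4 lower were called at 10000 ng/mL with quantile normalization and 2 higher and 5 lower with median centring, and at 0 ng/mL 2 higher and 4 lower, and 1 higher and 5 lower. Of all clusters, 43.8% were called at 10000 ng/mL and 46% at 0 ng/mL with quantile normalization, and 41.3% and 43.9% with median centring. The lines differ broadly: 41.1% of all clusters were called at 10000 ng/mL (15.1% higher and 26% lower in HT-29) and 42.7% at 0 ng/mL (18% higher and 24.7% lower). The same 5 were lower at both supplies, against 21.4% of all clusters. The median difference over all clusters was -0.07 at 10000 ng/mL and -0.01 at 0 ng/mL. The 6 HT-29 arrays did not overlap with the 6 SW480 arrays for 6 of the 8 clusters, 5 lower and 1 higher in HT-29, against 37.9% of all clusters (22.4% lower and 15.5% higher).

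**Figure D2:**
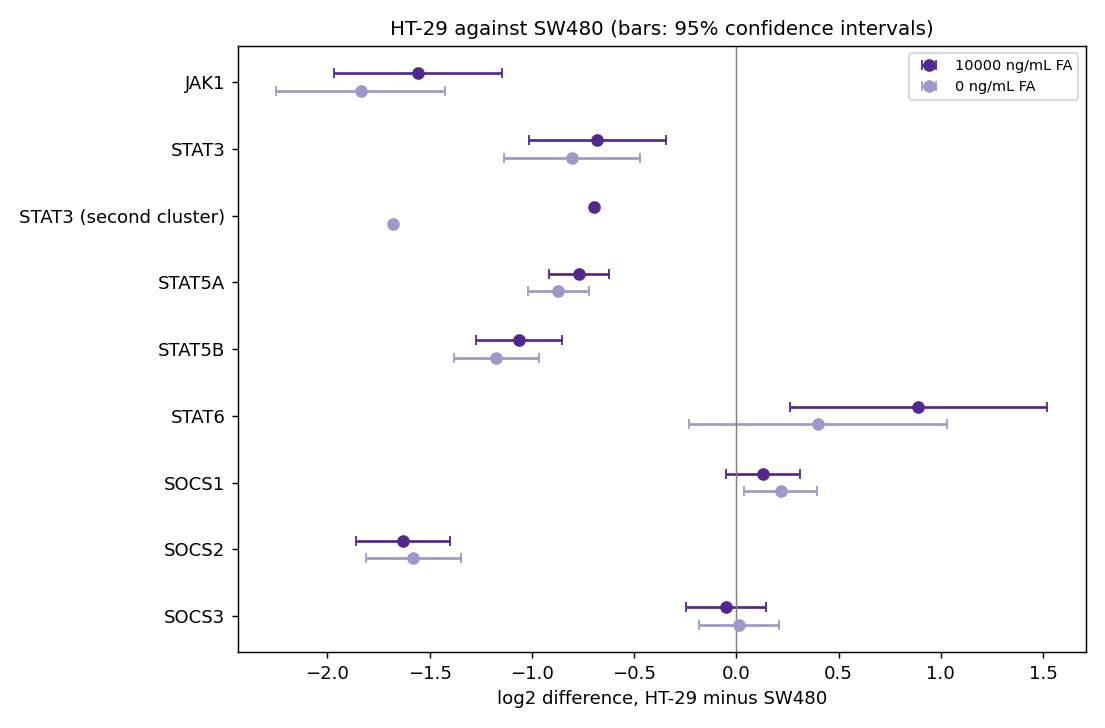
Log2 difference between the lines (HT-29 minus SW480) for each member cluster at 10000 ng/mL FA (dark) and 0 ng/mL FA (light), with 95% confidence intervals from limma (none for the second STAT3 cluster, which is described without a test). JAK1, STAT3, STAT5A, STAT5B and SOCS2 lie left of 0 at both supplies, and the 2 intervals of each of these genes overlap.

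JAK1 is the kinase shared by interferon, gp130 and common gamma chain receptors. Its values were 8.47, 8.74 and 8.47 in HT-29 at 10000 ng/mL and 8.46, 8.47 and 7.98 in HT-29 at 0 ng/mL. In SW480 they were 10.05, 10.04 and 10.26 at 10000 ng/mL and 10.13, 9.81 and 10.48 at 0 ng/mL. The highest HT-29 array was thus more than 1 log2 unit below the lowest SW480 array. The difference was -1.56 ± 0.18 (SE) at 10000 ng/mL, 2.94-fold lower in HT-29 (adjusted p = 8.73e-05), and -1.84 ± 0.18 at 0 ng/mL, 3.57-fold lower (adjusted p = 2.7e-05). Without HT-29 at 0 ng/mL, replicate 3, the difference at 0 ng/mL was -1.68 (adjusted p = 7.23e-05). In an exact two-sided permutation test of the line labels within each supply, p was 0.005, the smallest that the 400 relabelings allow. The same p was obtained for STAT3, STAT5A, STAT5B, SOCS1 and SOCS2. Every cluster whose lines do not overlap reaches it, whatever the size of the difference, and 37.9% of all clusters do not overlap.

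STAT3, the factor downstream of interleukin 6, leukaemia inhibitory factor (LIF), interleukin 10 and interleukin 22, was represented by 2 clusters, 1 of them named so only by the study. In the cluster chosen by symbol, values were 9.38, 9.49 and 9.34 in HT-29 at 10000 ng/mL and 9.11, 9.34 and 9.0 in HT-29 at 0 ng/mL. SW480 had 10.03, 10.08 and 10.14 at 10000 ng/mL and 10.08, 9.58 and 10.20 at 0 ng/mL. All HT-29 arrays were below all SW480 arrays, although SW480 at 0 ng/mL, replicate 2, came within 0.1 of the highest HT-29 array. STAT3 was 1.60-fold lower in HT-29 at 10000 ng/mL (-0.68 ± 0.15 (SE), adjusted p = 0.00474) and 1.75-fold lower at 0 ng/mL (-0.80 ± 0.15, adjusted p = 0.00174). Under quantile normalization the differences were -0.27 (adjusted p = 0.253) and -0.24 (adjusted p = 0.307), so the STAT3 call, unlike that of the other 4 lower genes, depended on how the arrays were scaled. Averaging both STAT3 clusters left the difference at 10000 ng/mL at -0.69, which was not called (adjusted p = 0.0834). That average takes in the cluster that the study selected for its change with FA in HT-29. It therefore cannot decide whether the STAT3 call holds.

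The second STAT3 cluster, TC17002638.hg.1, is not listed in the platform table, and the study selected it for its change with FA in HT-29. That it reads STAT3 rests on the name given by the study and was not checked. Its values in HT-29 are therefore described without a test. They were 10.90, 11.10 and 10.77 in HT-29 at 10000 ng/mL and 9.85, 10.83 and 8.77 in HT-29 at 0 ng/mL. SW480 had 11.60, 11.55 and 11.71 at 10000 ng/mL and 11.69, 10.86 and 11.94 at 0 ng/mL. The untreated HT-29 arrays ran between 8.77 and 10.83 (SD 1.03, n = 3), the widest spread of any member cluster in any group, while the FA-treated HT-29 arrays had an SD of 0.17. The mean was 2.15-fold higher in FA-treated HT-29 than in untreated HT-29, but 10.83 in untreated replicate 2 exceeded 10.77 in FA-treated replicate 3, so the groups overlapped. Without HT-29 at 0 ng/mL, replicate 3, the fold was 1.5. The cluster chosen by symbol was 1.19-fold higher in FA-treated HT-29 with all arrays. Between the lines, the second cluster was 1.62-fold lower in HT-29 at 10000 ng/mL and 3.20-fold lower at 0 ng/mL, with no overlap at either supply. Both STAT3 clusters had their lowest HT-29 value on this array and their lowest SW480 value on replicate 2 at 0 ng/mL.

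STAT5A and STAT5B are neighbouring, closely related factors that transmit growth hormone, prolactin, erythropoietin and interleukin 2 signals. STAT5B, STAT5A and STAT3 are consecutive protein-coding genes on chromosome 17, and all were lower in HT-29. STAT5A values were 5.52, 5.53 and 5.52 in HT-29 at 10000 ng/mL and 5.52, 5.58 and 5.61 in HT-29 at 0 ng/mL, against 6.26, 6.26 and 6.36 in SW480 at 10000 ng/mL and 6.39, 6.36 and 6.57 in SW480 at 0 ng/mL. The HT-29 arrays spanned less than 0.1 log2 units and none reached the SW480 range. STAT5A was 1.71-fold lower in HT-29 at 10000 ng/mL (-0.77 ± 0.07 (SE), adjusted p = 8.64e-06) and 1.83-fold lower at 0 ng/mL (-0.87 ± 0.07, adjusted p = 3.62e-06). STAT5B was at 6.98 on all 3 arrays of HT-29 at 10000 ng/mL and at 6.98, 6.98 and 6.66 in HT-29 at 0 ng/mL, against 8.05, 8.03 and 8.05 in SW480 at 10000 ng/mL and 8.05, 7.92 and 8.17 in SW480 at 0 ng/mL. Again the lines were clearly apart. STAT5B was 2.09-fold lower in HT-29 at 10000 ng/mL (-1.06 ± 0.09, adjusted p = 1.04e-05) and 2.26-fold lower at 0 ng/mL (-1.17 ± 0.09, adjusted p = 5.18e-06). Values equal on all 3 arrays of a group, as for STAT5B, were found for 12.3% of the clusters in HT-29 at 10000 ng/mL and 10.4% in SW480 at 10000 ng/mL. They were found for 3.13% in HT-29 at 0 ng/mL and 6.72% in SW480 at 0 ng/mL, and their origin was not tested.

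STAT dimers bind TTCNNNGAA (read alike on both strands), and STAT6 prefers TTC and GAA with 4 bases between them (also alike on both strands). The stretches printed here are upstream promoter sequence from RefSeq (GRCh38.p14), shown because they carry such matches at a gene of the pathway. Windows of 300 bases (250 before and 50 after the start) were found for 8 of the 9 members, 13 windows in all. None of the 13 held TTCNNNGAA, which occurs in 7.66% of all 35116 windows. The form with 4 bases between was found in 1, of STAT5A, and occurs in 6.44% of all windows. By contrast, the promoter of CISH, the SOCS family gene known as a STAT5 target, held TTCNNNGAA at 4 places, starting 241, 230, 129 and 112 bases before the start. CISH itself was at 3.42 on all FA-treated HT-29 arrays, 3.42, 3.42 and 3.86 in untreated HT-29 and 3.33 to 3.58 in SW480, and it was not called between the lines at 10000 ng/mL (0.07, adjusted p = 0.67) or at 0 ng/mL (0.14, adjusted p = 0.359). A match is a description of the sequence only. Capitals mark the matches in CISH (chr3:50611865-50612024, minus strand) and in STAT5A (chr17:42287189-42287248, plus strand).
CISH: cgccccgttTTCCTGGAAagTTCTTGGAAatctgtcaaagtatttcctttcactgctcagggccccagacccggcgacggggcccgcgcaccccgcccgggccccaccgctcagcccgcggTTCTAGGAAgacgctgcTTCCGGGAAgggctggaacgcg
STAT5A: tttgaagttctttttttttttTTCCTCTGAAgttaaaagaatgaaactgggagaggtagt

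STAT6, the factor of interleukin 4 and interleukin 13, was the member that was higher in HT-29. Its values were 9.44, 9.45 and 9.44 in HT-29 at 10000 ng/mL and 9.44, 9.51 and 8.27 in HT-29 at 0 ng/mL. In SW480 they were 8.54, 8.38 and 8.74 at 10000 ng/mL and 8.74, 8.46 and 8.82 at 0 ng/mL. A single array, HT-29 at 0 ng/mL, replicate 3, was below every SW480 array, and the other 5 HT-29 arrays were above all of them. STAT6 was 1.85-fold higher in HT-29 at 10000 ng/mL (0.89 ± 0.28 (SE), adjusted p = 0.0288), while the difference of 0.40 ± 0.28 at 0 ng/mL was not called (adjusted p = 0.282). Without replicate 3 of untreated HT-29, the differences were 0.89 (adjusted p = 0.000155) and 0.80 (adjusted p = 0.000638). That array enters the comparison at 10000 ng/mL through the shared estimate of the spread. With it included, the call at 10000 ng/mL was lost when any 1 of the 6 arrays compared other than FA-treated SW480 replicate 3 was left out (adjusted p = 0.0687 to 0.0923, difference 0.80 to 0.89). The exact permutation p over both supplies was 0.02.

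The SOCS genes differed among themselves. SOCS2, which restrains growth hormone signalling through STAT5, was at 3.86 on all 3 arrays of HT-29 at 10000 ng/mL and at 3.89, 3.86 and 4.25 in HT-29 at 0 ng/mL. It was at 5.49 on all 3 arrays of SW480 at 10000 ng/mL and at 5.49, 5.73 and 5.52 in SW480 at 0 ng/mL. The HT-29 arrays thus stayed more than 1 log2 unit below the SW480 arrays. SOCS2 was 3.10-fold lower in HT-29 at 10000 ng/mL (-1.63 ± 0.10 (SE), adjusted p = 9.64e-07) and 2.99-fold lower at 0 ng/mL (-1.58 ± 0.10, adjusted p = 1.26e-06). On every HT-29 array SOCS2 was below the median over all clusters. Whether it was detected in HT-29 was not tested, so the fold sizes may not be those of the RNA.

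SOCS1, an inhibitor of interferon signalling that acts on JAK kinases, had values of 2.88, 2.86 and 2.88 in HT-29 at 10000 ng/mL and 2.88, 2.85 and 3.15 in HT-29 at 0 ng/mL. In SW480 it had 2.78, 2.77 and 2.68 at 10000 ng/mL and 2.69, 2.80 and 2.74 at 0 ng/mL. The lines did not overlap, but the lowest HT-29 value of 2.85 was close to the highest SW480 value of 2.80, and this was the member cluster that a filter on the lowest 33.3% of mean values removed. The differences of 0.13 ± 0.08 (SE) at 10000 ng/mL and 0.22 ± 0.08 at 0 ng/mL were not called (adjusted p = 0.232 and 0.0536). Without replicate 3 of untreated HT-29 they were 0.13 (adjusted p = 0.0203) and 0.12 (adjusted p = 0.0437). The SOCS1 promoter held the only match among the 13 member windows of a pair of GAAA blocks with 2 bases between them, the core of the element that interferon-activated factors bind, searched on both strands and found in 3.57% of all windows. It started 113 bases before the start, and is given in capitals within chr16:11256275-11256354 (minus strand, GRCh38.p14).
SOCS1: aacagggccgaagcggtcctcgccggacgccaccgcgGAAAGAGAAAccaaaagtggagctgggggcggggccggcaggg

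SOCS3, which binds gp130 and limits STAT3 activation, was the most even of the 9 clusters between the lines. It had values of 4.16, 4.02 and 4.08 in HT-29 at 10000 ng/mL and 4.08, 4.02 and 4.37 in HT-29 at 0 ng/mL. In SW480 it had 4.13, 4.15 and 4.13 at 10000 ng/mL and 4.19, 4.11 and 4.13 at 0 ng/mL. The HT-29 range enclosed the SW480 range. On every array SOCS3 was below the median over all clusters. That median was 4.75 for HT-29 at 0 ng/mL, replicate 3, and 4.3 to 4.58 on the other 11 arrays. Whether SOCS3 was detected in either line was not tested, so the evenness cannot be read as equal expression. The differences were -0.05 (95% confidence interval -0.25 to 0.15, adjusted p = 0.689) at 10000 ng/mL and 0.01 (-0.18 to 0.21, adjusted p = 0.917) at 0 ng/mL, and the exact permutation p was 0.82.

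The second question is whether 10000 ng/mL FA changed the members relative to 0 ng/mL, and no change was called. In HT-29, 0 of the 8 clusters chosen by symbol passed adjustment in limma (0% of all 67528 clusters did), 0 had an unadjusted p under 0.05 (5.44% of all clusters), and 0 met the study's criteria of an unadjusted p of at most 0.05 with a fold change of at least 1.5 (1.36%). In SW480, these numbers were also 0, against 0.00592%, 4.06% and 1.04% of all clusters. The unadjusted limma p of STAT5A in SW480 was close to the limit, at 0.0517. Without HT-29 at 0 ng/mL, replicate 3, which enters through the shared estimate of the spread, it was 0.0328 (adjusted p = 0.562). With array weights, the members called were also 0 in each line, while 7.1% of all clusters were called in HT-29. FA-treated and untreated arrays overlapped for all 9 clusters in both lines, whereas they did not overlap for 5.25% of all clusters in HT-29 and 7.84% in SW480.

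In HT-29, the kinase and 3 of the 4 STAT factors had higher means with FA and STAT5A and the 3 SOCS genes had lower ones, all within their spread. The FA effect was 0.26 for JAK1 (95% confidence interval -0.16 to 0.67), 0.25 for STAT3 (-0.08 to 0.59), 0.11 for STAT5B (-0.10 to 0.32) and 0.37 for STAT6 (-0.26 to 1.00). It was -0.05 for STAT5A (-0.19 to 0.10), -0.09 for SOCS1 (-0.27 to 0.09), -0.14 for SOCS2 (-0.37 to 0.09) and -0.07 for SOCS3 (-0.27 to 0.13), where the median over all clusters was -0.08. Adjusted p was 0.587 to 0.728. The direction in HT-29 moved with 1 array: without HT-29 at 0 ng/mL, replicate 3, the effects were 0.10 for JAK1, 0.18 for STAT3, 0.00 for STAT5B and -0.03 for STAT6, and -0.03 for STAT5A, 0.01 for SOCS1, -0.015 for SOCS2 and 0.04 for SOCS3. The sign thus turned for STAT6, SOCS1 and SOCS3. Under quantile normalization it turned for STAT3 (-0.01), STAT5A (0.05), SOCS2 (0.00) and SOCS3 (0.09), and median centring of each array turned STAT5A and the 3 SOCS genes.

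In SW480, JAK1 differed by -0.02 (95% confidence interval -0.44 to 0.39), STAT3 by 0.13 (-0.20 to 0.46), the second STAT3 cluster by 0.12 (-0.88 to 1.12) and STAT6 by -0.12 (-0.75 to 0.51). The STAT5A difference of -0.15 (-0.29 to 0.00) was the largest relative to its error, and adjusted p was 1 for every cluster. Values of 6.26, 6.26 and 6.36 with FA and 6.39, 6.36 and 6.57 without it met at 6.36. STAT5B, SOCS1, SOCS2 and SOCS3 differed by 0.00, 0.00, -0.09 and -0.01. The intervals of all 8 clusters chosen by symbol lay within 1 log2 unit of 0 in both lines, and the bound farthest from 0 was the upper bound of STAT6 in HT-29, at 1.00.

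**Figure D3:**
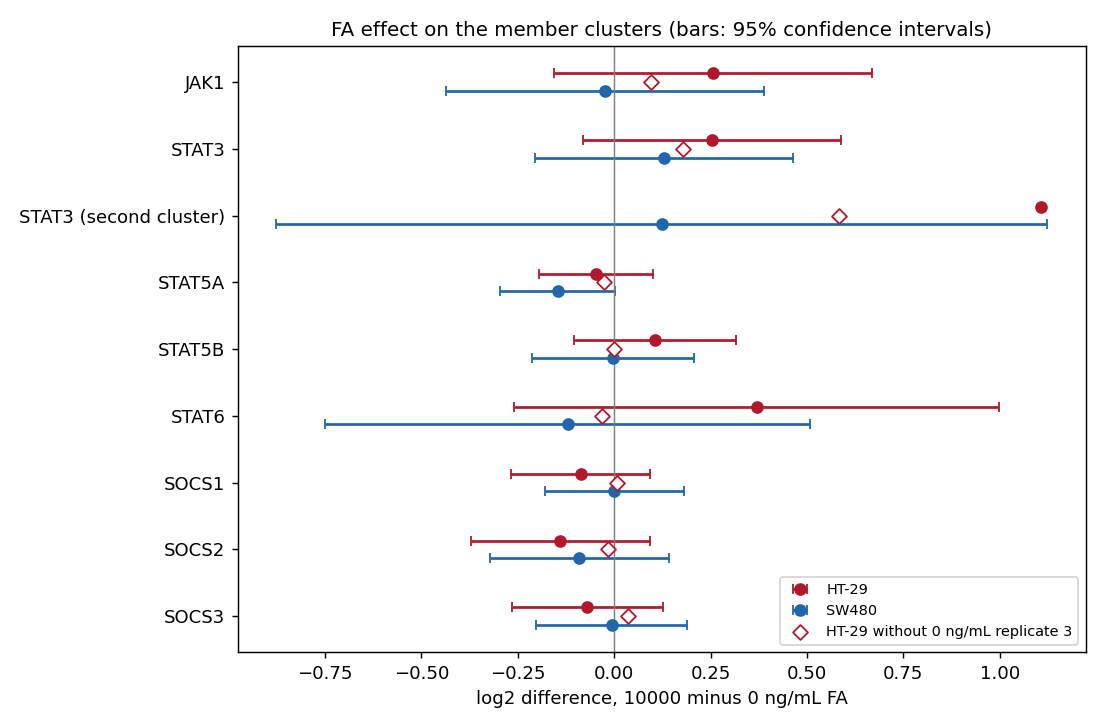
Log2 difference between 10000 and 0 ng/mL FA for each member cluster in HT-29 (red) and SW480 (blue), with 95% confidence intervals from limma (none for the second STAT3 cluster in HT-29); open diamonds are the HT-29 differences without HT-29 at 0 ng/mL, replicate 3. All intervals of the 8 clusters chosen by symbol include 0, and in HT-29 the STAT6 difference moves from 0.37 with all arrays to -0.03 without that array.

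The FA effects of the lines were also compared with each other (HT-29 minus SW480). The difference was 0.28 for JAK1 (95% confidence interval -0.30 to 0.86), 0.12 for STAT3 (-0.35 to 0.60), 0.10 for STAT5A (-0.11 to 0.31), 0.11 for STAT5B (-0.19 to 0.41) and 0.49 for STAT6 (-0.40 to 1.38). SOCS1, SOCS2 and SOCS3 had -0.09, -0.05 and -0.06. None was called in limma (adjusted p = 0.939 to 0.959), 0 had an unadjusted p under 0.05, and 0 of 8 met the study's criteria, against 0%, 3.29% and 1.53% of all clusters.

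Of the 4 remaining JAK and STAT genes on the array, the 3 kinases were lower in HT-29 like JAK1. TYK2, the kinase that partners JAK1 at interferon receptors, was at 5.8 on all FA-treated HT-29 arrays and 5.8, 5.8 and 5.74 in untreated HT-29, against 6.72 on all FA-treated SW480 arrays and 6.72, 6.69 and 6.78 in untreated SW480. The difference was -0.92 at 10000 ng/mL and -0.95 at 0 ng/mL (adjusted p = 2.26e-07 and 1.81e-07). JAK2 (-0.47 and -0.46) and JAK3 (-0.39 and -0.40) were also lower in HT-29, so 3 of 4 measured genes were lower at each supply, also without replicate 3 of untreated HT-29 and under both other scalings. The median difference of the 4 was -0.43 at each supply, where that of all clusters was -0.07 and -0.01. Over all clusters, 26% were lower in HT-29 at 10000 ng/mL and 24.7% at 0 ng/mL. Calls in either direction took in 41.1% and 42.7%, and 57% and 53.9% without replicate 3 of untreated HT-29. They took in 43.8% and 46% with quantile normalization and 41.3% and 43.9% with median centring. STAT4, of interleukin 12 signalling, was not called (-0.03 and 0.11).

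Among 13 measured cytokine ligands, 3 were higher and 4 lower in HT-29 at 10000 ng/mL, and 3 were higher and 2 lower at 0 ng/mL. Without replicate 3 of untreated HT-29, these were 3 and 6, and 2 and 7. At 0 ng/mL, 2 were higher and 4 lower both with quantile normalization (46% of all clusters called) and with median centring (43.9%). The median difference of the list was -0.07 at 10000 ng/mL and -0.11 at 0 ng/mL. The shares called over all clusters were 41.1% at 10000 ng/mL and 42.7% at 0 ng/mL. They were 57% and 53.9% without replicate 3 of untreated HT-29. LIF, which acts through gp130, JAK1 and STAT3, had 5.30, 5.30 and 5.06 in FA-treated HT-29 and 5.33, 5.30 and 4.84 in untreated HT-29, against 8.23, 8.27 and 8.62 in FA-treated SW480 and 8.21, 7.71 and 8.0 in untreated SW480. It was 8.90-fold lower in HT-29 at 10000 ng/mL (-3.15, adjusted p = 3.49e-07) and 7.05-fold lower at 0 ng/mL (-2.82, adjusted p = 8.04e-07). IL10, an anti-inflammatory STAT3 cytokine, was also lower (-2.50 and -2.42), while IFNL1, an interferon of epithelial surfaces, was higher (0.60 and 0.52). IFNL1 was at 4.43 to 4.5 in HT-29 and 3.85 to 4.04 in SW480, and IL10 at 3.89 to 4.21 in HT-29. These levels were near or below the medians over all clusters, which ran from 4.3 to 4.75. Whether IFNL1 was detected in either line, or IL10 in HT-29, was not tested. FA changed none of the 13 by adjusted p. LIF in SW480 was 0.40 higher with FA (limma, adjusted p = 1), and all FA-treated SW480 arrays (8.23 to 8.62) were above all untreated ones (7.71 to 8.21), as was so in that direction for 2.99% of all clusters.

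The receptors showed the widest contrasts of the upstream genes. Of 18 measured, 7 were higher and 7 lower in HT-29 at 10000 ng/mL, and 7 were higher and 8 lower at 0 ng/mL (8 and 9, and 9 and 9, without replicate 3 of untreated HT-29), with a median difference of 0.02 and 0.11. The shares called over all clusters were 41.1% and 42.7%, and 57% and 53.9% without that array. IL6ST, which encodes gp130, had 8.95, 8.79 and 8.65 in FA-treated HT-29 and 8.79, 8.79 and 8.11 in untreated HT-29, against 12.10, 12.16 and 12.16 in FA-treated SW480 and 12, 12.15 and 12.2 in untreated SW480. It was 10.1-fold lower in HT-29 at 10000 ng/mL (-3.34, adjusted p = 1.79e-07) and 11.7-fold lower at 0 ng/mL (-3.55, adjusted p = 1.18e-07). IFNAR1, a chain of the type I interferon receptor, was 9.62-fold (-3.27) and 11.1-fold (-3.47) lower, and IL2RG, the common gamma chain, 3.89-fold (-1.96) and 4-fold (-2.0) lower in HT-29. IFNAR2, the other chain of that receptor, was lower as well (-1.96 and -2.16). IL22RA1, the interleukin 22 receptor of epithelial cells, was higher in HT-29 (1.60 and 1.30). With FA, the receptors of HT-29 with the smallest p were IL22RA1 (0.31), IL6R (-0.27) and IFNGR1 (0.48), none called (adjusted p = 0.587 each).

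**Figure D4:**
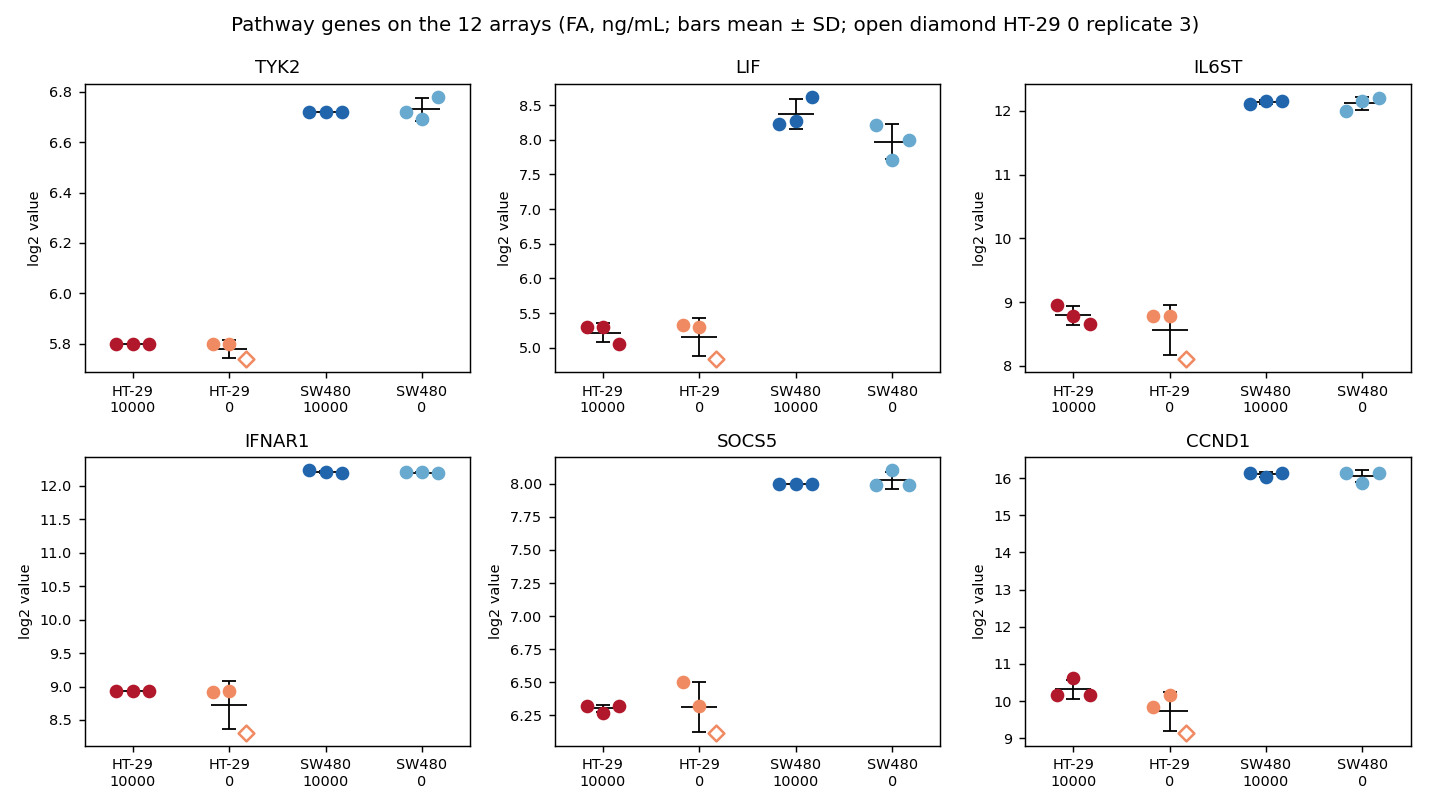
Log2 values on the 12 arrays of the kinase TYK2, the ligand LIF, the receptors IL6ST and IFNAR1, the inhibitor SOCS5 and the STAT3 target CCND1, each with its own vertical axis; dots are arrays grouped by cell line and FA supply (ng/mL), bars with whiskers are means ± SD (n = 3), and the open diamond is HT-29 at 0 ng/mL, replicate 3. In each panel all HT-29 arrays lie below all SW480 arrays, and the widest gap is that of CCND1, at 9.15 to 10.62 in HT-29 and 15.88 to 16.14 in SW480.

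Among 14 further inhibitors, 4 were higher and 5 lower in HT-29 at 10000 ng/mL, and 3 were higher and 4 lower at 0 ng/mL (5 and 6 at each supply without replicate 3 of untreated HT-29), with a median difference of 0.02 and -0.10. This balance depended on scaling: with quantile normalization, 7 were higher and 4 lower at 10000 ng/mL and 6 were higher and 3 lower at 0 ng/mL, while median centring gave 4 and 4, and 3 and 4. The shares of all clusters called were 43.8% and 46% with quantile normalization and 41.3% and 43.9% with median centring. In the main fit 41.1% of all clusters were called at 10000 ng/mL and 42.7% at 0 ng/mL. Without replicate 3 of untreated HT-29, 57% and 53.9% were. The phosphatase gene PTPN11, lower in HT-29 at 10000 ng/mL (-0.19, adjusted p = 0.0191), was at 0.00 with quantile normalization and not called. SOCS5 was lower in HT-29 like SOCS2 (-1.70 and -1.71, adjusted p = 2.06e-07 and 1.93e-07), and SOCS6 was higher (0.71 and 0.77). SOCS4 was lower (-0.74 and -0.59) and SOCS7 higher (1.37 and 1.27), so that of the SOCS family with CISH, 3 genes were lower, 2 higher and 3 not called at each supply. With quantile normalization SOCS4 at 0 ng/mL was not called (-0.18, adjusted p = 0.0723). PTPN1, a phosphatase that removes phosphate from JAK2 and TYK2, was lower in HT-29 (-1.10 and -1.36). USP18, which blocks the type I interferon receptor, was higher (0.57 and 0.46).

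Of 14 genes known as STAT3 targets, 2 were higher and 5 lower in HT-29 at 10000 ng/mL, and 1 was higher and 7 lower at 0 ng/mL. Without replicate 3 of untreated HT-29, these were 3 and 6, and 2 and 7. With quantile normalization, 2 were higher and 5 lower at 10000 ng/mL, with 2 of the calls lost, and 2 were higher and 6 lower at 0 ng/mL, with 1 lost. Median centring gave 1 and 4, with 2 lost, and 1 and 6, with 1 lost. Under these scalings 43.8% and 46% of all clusters were called with quantile normalization, and 41.3% and 43.9% with median centring. The sign of BCL3, lower in HT-29 at 10000 ng/mL (-0.12, adjusted p = 0.0464), turned with quantile normalization (0.07) and was not called there. The median difference of the list was -0.21 and -0.09. Of all clusters, 41.1% were called at 10000 ng/mL and 42.7% at 0 ng/mL in the main fit. These shares were 57% and 53.9% without replicate 3 of untreated HT-29. CCND1, cyclin D1, had 10.17, 10.62 and 10.17 in FA-treated HT-29 and 9.85, 10.17 and 9.15 in untreated HT-29, against 16.13, 16.02 and 16.14 in FA-treated SW480 and 16.14, 15.88 and 16.14 in untreated SW480. It was 54.8-fold lower in HT-29 at 10000 ng/mL (-5.78, adjusted p = 3.54e-08) and 80.4-fold lower at 0 ng/mL (-6.33, adjusted p = 1.95e-08). BIRC5, the inhibitor of apoptosis survivin, and BCL2L1, which encodes Bcl-xL, were lower too (-2.26 and -2.37 for BIRC5, -1.32 and -1.35 for BCL2L1). These genes have many other regulators, and what STAT3 contributes was not tested. With FA in HT-29, CCND1 (0.60) and the early response gene FOS (0.54) had the smallest p and were not called (adjusted p = 0.587 each). CCND1 was the only gene of the 6 pathway lists to meet the study's criteria for FA in HT-29 (1.51-fold, 1 of 14 STAT3 targets), and without HT-29 at 0 ng/mL, replicate 3, its difference was 0.31.

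Of 9 interferon targets, 6 were higher and 2 lower in HT-29 at 10000 ng/mL, and 6 were higher and 3 lower at 0 ng/mL, with a median difference of 1.33 and 1.09. The higher ones included IFIT3, an antiviral protein, with 7.10, 7.04 and 7.04 in FA-treated HT-29 and 7.04, 7.04 and 6.86 in untreated HT-29, against 5.71, 5.44 and 5.71 in FA-treated SW480 and 5.63, 5.81 and 5.74 in untreated SW480 (differences of 1.44 and 1.25, adjusted p = 8.17e-07 and 2.31e-06). TAP1, the peptide transporter of antigen presentation, and the factor IRF1 were lower in HT-29 (-1.15 and -1.17 for TAP1, -0.59 and -0.59 for IRF1). Of all clusters, 15.1% were higher and 26% lower in HT-29 at 10000 ng/mL, and 18% higher and 24.7% lower at 0 ng/mL. Over the 6 pathway lists, 0 genes were called for FA in HT-29, in SW480 or for the difference of the FA effects. The shares over all clusters were 0%, 0.00592% and 0%.

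**Figure D5:**
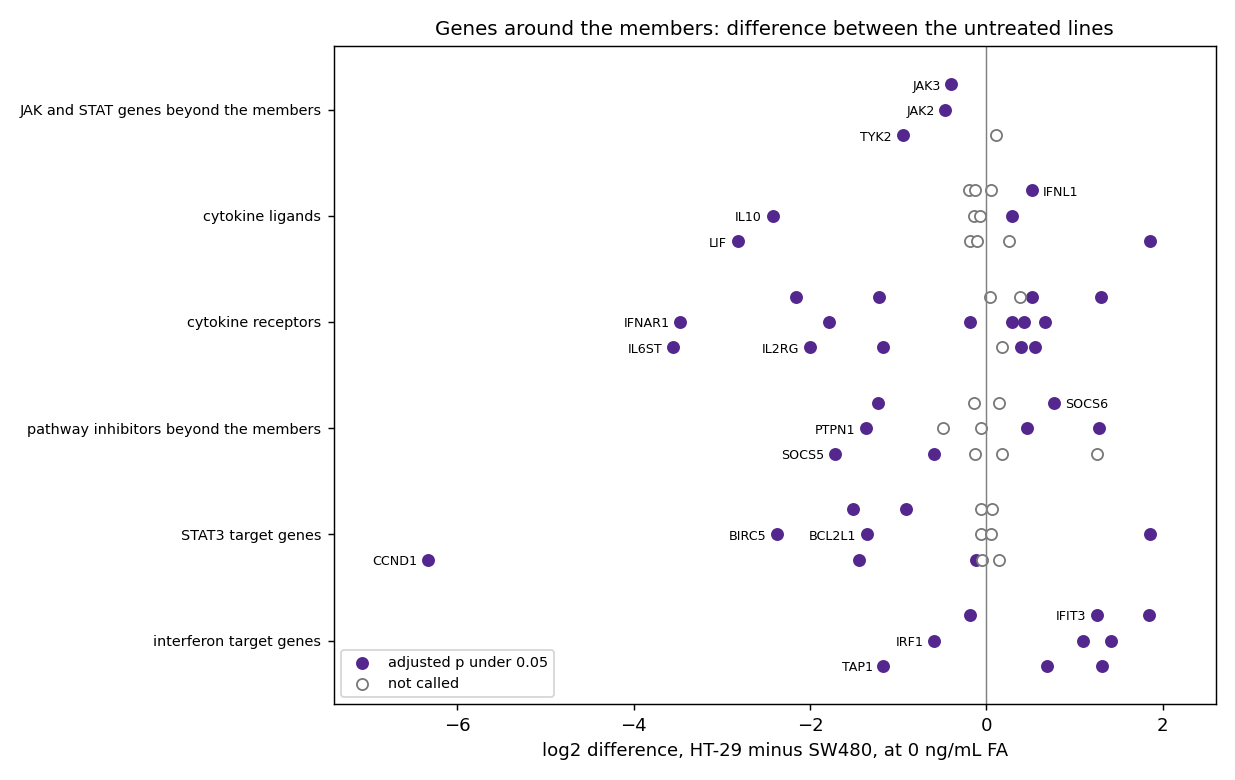
Log2 difference between the untreated lines (HT-29 minus SW480) for the genes around the members, 1 row per list; each dot is a gene at its highest-mean cluster, filled where adjusted p in limma is under 0.05 and open where not, and the 3 genes with the smallest p per list are named. Most receptors and all 9 interferon targets are filled, with dots on both sides of 0.

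Genes whose 12 values ran most like those of a member were sought among clusters of other genes with a single symbol and a mean of at least 6. The highest Pearson r was 0.998 with HIP1 for JAK1, 0.994 with GRAMD4 for STAT3, 0.979 with ACP2 for the second STAT3 cluster, 0.999 with RAB31 for STAT5A and 0.999 with GRAMD1A for STAT5B. It was 0.985 with MRTFB for STAT6, 0.968 with FAM218A for SOCS1, 0.998 with ZBTB46 for SOCS2 and 0.947 with PHF1 for SOCS3. JAK1 was followed by ANGEL1 and KIDINS220, STAT3 by BCORL1 and USP22, the second STAT3 cluster by PNPLA6 and RABL3, STAT5A by PAQR7 and SHH and STAT5B by TLE3 and ZNF594. STAT6 was followed by OLMALINC and LITAF, SOCS1 by TAF13 and C8orf33, SOCS2 by TFPT and PGAP2 and SOCS3 by another PHF1 cluster and ST13P19. These are descriptions over 12 arrays that share 2 lines and an array apart from the rest. Without that array, the r of SOCS1 with FAM218A was 0.901 and that of SOCS3 with PHF1 was 0.827, while that of JAK1 with HIP1 was 0.998.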

How the data were processed

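RNA of HT-29 and SW480 cells was hybridised to Affymetrix Human Transcriptome Array 2.0 chips. The values are log2 signals that the authors deposited from the SST-RMA routine of Transcriptome Analysis Console 4.0, which removes background, equalises the arrays and combines probes into clusters. The labels give RMA with no version. The 12 columns entered the fits as they are, and 0 values were missing. The array number limits the precision.

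Group means were fitted here with limma 3.58.1 in R 4.3.3 over all 12 arrays (8 residual degrees of freedom, moderated variances, two-sided, Benjamini-Hochberg over 67528 clusters). The contrasts were the FA effect in each line, the difference of these effects, and HT-29 minus SW480 at each supply. The fit was tested on simulated data with 200 clusters changed in FA-treated SW480. It recovered 116 changes of 1 log2 unit and 183 of 2 log2 units, with 11 and 10 false calls. Many changes of 1 log2 unit were thus missed. The simulated arrays held no line difference and no array that stood apart, unlike the data. Gene names come from the platform annotation where it lists 1 symbol (23781 clusters, 21497 matched by Entrez number to the reference, 0 renamed).

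Named were all member clusters, up to 3 genes per list and contrast with the smallest p (each gene at its highest-mean cluster), and the 3 most alike clusters of each member. CISH, SOCS7, PTPN11, BCL3 and the marker genes given by level fall outside this rule and were chosen after their values were seen. The members and lists were chosen with earlier results of these data known. CLCF1, CNTF, IFNLR1, LEPR and IRF9 are not listed in the platform table and were not used here. Alternatives were a fit for each line, trended and robust moderation, array weights, a replicate block, a filter on low values, quantile normalization, median centring, averaging the clusters of a gene, the study's criteria and leaving out each array. The permutation test, the lists without HT-29 at 0 ng/mL, replicate 3, and the HT-29 arrays fitted on their own without it were added after seeing the data. Plots used matplotlib 3.10.9 (Python 3.11.15).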

Additional observations from a re-analysis of the deposited data

How the results depend on the processing

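The counts of member clusters called stayed within 1.5 times the main count under every alternative run: 0 for the FA effects and their difference, 5 to 7 of 8 (of 7 with the filter, which removed SOCS1) for the line difference at 10000 and at 0 ng/mL, and 5 to 7 at each supply when single arrays were left out. The signs of all called member differences were kept. STAT3 lost its call between the lines under quantile normalization at both supplies, and STAT6 at 10000 ng/mL lost its call in 6 of 19 alternatives. The average of both STAT3 clusters was not called at 10000 ng/mL. It takes in the cluster selected for its change with FA in HT-29 and cannot decide that call. STAT6 at 0 ng/mL became called with array weights (0.71), quantile normalization (0.93) and without HT-29 at 0 ng/mL, replicate 3 (0.80), and SOCS1 at 0 ng/mL in 6 of 18 alternatives and at 10000 ng/mL in 3 of 18. Whether the replicate numbers pair the arrays could not be settled with 3 arrays per group. Correlations of deviations between same-numbered arrays were -0.07, 0.16 and -0.02 in HT-29 and -0.08, 0.01 and 0.40 in SW480. Between arrays of different number they ran from -0.16 to 0.13 in HT-29 and from -0.34 to 0.32 in SW480. With the replicate block, 5 clusters were called at each supply, STAT6 at 10000 ng/mL lost its call (1.05, adjusted p = 0.084), 0 members were called for FA in either line or for the difference, and the calls over all clusters were 24.6% at 10000 ng/mL and 24.5% at 0 ng/mL, against 41.1% and 42.7%. With array weights, 62.7% of all clusters were called at 10000 ng/mL and 68.9% at 0 ng/mL, and the second STAT3 cluster had an FA difference of 0.99 in HT-29, the effect it was chosen for. A shift of the median over all clusters by more than 0.1 arose for the FA effect in HT-29 under median centring (0.07) and quantile normalization (0.02), against -0.08. It also arose for the line difference at 0 ng/mL with the filter on low values (-0.11, against -0.01), where fewer clusters enter the median. With 3 arrays per group, precision is limited by their number.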
